A study of Mus musculus with 8 samples.

Results

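Alternative last exon events are places where a gene's transcripts share a splice site and then end in different terminal exons. The events described here are all 2351 regions that the authors' deposited splicing table types as alternative last exon, out of 26983 events of all types, whatever their size or p-value. They were called in a mouse pro-B cell line, BaF3, after knockdown of Ybx1. All groups carried Jak2 V617F, the activating change of the Jak2 kinase, and were grown in RPMI1640 medium with serum and pyruvate. Knockdown cells expressed 1 of 2 short hairpins against Ybx1, sh1Ybx1 or sh2Ybx1 (2 libraries each), and control cells expressed the shNT hairpin (4 libraries). Whether replicates came from separate cultures, and whether the cells were 1 clone, is not in the labels. The p-values therefore measure the spread between libraries, which may be technical. In bulk samples such as these, fewer cells of a type and less RNA per cell cannot be told apart.

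A messenger RNA ends where its precursor is cut and given a poly(A) tail, usually a short distance after the hexamer AATAAA or ATTAAA, which the cleavage and polyadenylation complex recognises. When a transcript ends early, in an internal or intronic terminal exon, the protein loses or exchanges its C-terminal part, and U1 snRNP, the elongation kinases Cdk12 and Cdk13 and many RNA-binding proteins are known to bear on that choice. YBX1 carries a cold shock domain, binds RNA, and takes part in splicing, mRNA stability and translation.

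Junction sequences of 2 genes whose paths differ at the 3′ end show what such an event looks like. Each is the reference sequence of the annotated transcripts (GENCODE M21, GRCm38, written in the sense of the mRNA), with 15 bases on each side of an exon junction. Lower case marks the exon that both paths share and capitals mark the next exon, which differs between the path that reaches the far end of the event's range (far path) and the other path. Map3k20 was named by a rule on the size of the difference in the splicing table, and Nfx1 was chosen after its values were seen.
Map3k20 far path, next exon chr2:72410149-72410193: caatccaacaccccgCTGCTGCCTTCCTTT
Map3k20 other path, next exon chr2:72401989-72407502: caatccaacaccccgCTTCTCTTGCCTCTC
Nfx1 far path, next exon chr4:41015203-41015433: atgggcaagcatgagTTACGAAGCAACATC
Nfx1 other path, next exon chr4:41011527-41012608: atgggcaagcatgagAGACAATAGGAAGTG
Both genes lie on the plus strand. In each, the next exon of the other path is that transcript's last exon, while the far path runs on through further exons to a more distal end. Map3k20 encodes the stress kinase ZAK, known in a long and a short form. Nfx1 encodes a zinc finger RNA- and DNA-binding protein, also known in forms of different length.

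The last 30 bases of the same transcripts follow, with the poly(A) hexamer in capitals.
Map3k20 far path end: ggtAATAAAaaaaaagattattgaagttaa
Map3k20 other path end: ccattttgcAATAAAcgttttgacagtaaa
Nfx1 far path end: gaaatcATTAAAcaaggcacttaattttta
Nfx1 other path end: tgtaagccaAATAAAccctttcctcctcta
Both paths of Map3k20 and Nfx1 ended in an annotated site with a hexamer in this window.

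In 3 other genes the paths part at the 5′ side, although the event is typed alternative last exon. Here capitals mark the upstream exon that differs and lower case the shared exon it is joined to, and all 3 genes lie on the minus strand. They are shown because they make the direction of the event type visible. Kdm2a and Tbcel were named by the same rule and Bnip3l was chosen after its values were seen.
Kdm2a far path, upstream exon chr19:4342847-4343241: ATTGCTGATGTAAAGattttgctggaagaa
Kdm2a other path, upstream exon chr19:4333643-4334001: AACAAGAAATGCAAGattttgctggaagaa
Tbcel far path, upstream exon chr9:42472066-42472258: CTCCCGGGCCGAGGGacttttcagaaaaga
Tbcel other path, upstream exon chr9:42457558-42457599: CACTCCTAGGCTCAGacttttcagaaaaga
Bnip3l far path, upstream exon chr14:67008688-67008877: CCGCTGGCCTCAACAgttcctgggtggagc
Bnip3l other path, upstream exon chr14:67000405-67000508: GAACAACTTCACAAGgttcctgggtggagc
Kdm2a encodes a histone H3 lysine demethylase, known also in a short form that lacks the catalytic domain. Tbcel encodes a relative of tubulin cofactor E, and Bnip3l encodes NIX, a receptor that marks mitochondria for removal. In each of the 3, the other path's exon is the first exon of its transcript.

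The event type followed the left-to-right order of the genome and not the direction of transcription. Each range was placed on the annotated transcripts of its gene by which of its boundaries is a splice site: a range whose 5′ boundary is a splice site was put at the 3′ side, and one whose 3′ boundary is a splice site at the 5′ side. Of the plus-strand events, 440 lay at the 3′ side and 8 at the 5′ side, so that 98.2% of the 448 placed were at the 3′ side. Of the minus-strand events, 1094 lay at the 5′ side and 6 at the 3′ side, so that 99.5% of the 1100 placed were at the 5′ side. Minus-strand genes held 1500 of the events and plus-strand genes 671. In all, 71.2% of the 1548 placed events lay at the 5′ side, where transcripts begin. The remaining ranges had both boundaries (369) or neither boundary (252) at an annotated splice site, or no gene to match (182). Events typed alternative first exon were the mirror image: 98.9% of 1114 placed on the plus strand lay at the 5′ side and 96.7% of 449 placed on the minus strand at the 3′ side.

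The position of the ranges within genes gave the same picture. The median midpoint lay 65% of the way from the 5′ to the 3′ end of the gene on the plus strand and 28.7% of the way on the minus strand. The far end fell inside an annotated terminal exon for 330 of the 446 events at the 3′ side (74.0%) and for 746 of the 1102 at the 5′ side (67.7%). Events at the 3′ side are taken here as last exon events by transcript order. Those at the 5′ side, nearly all of minus-strand genes, are taken as first exon events by transcript order.

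**Figure D1:**
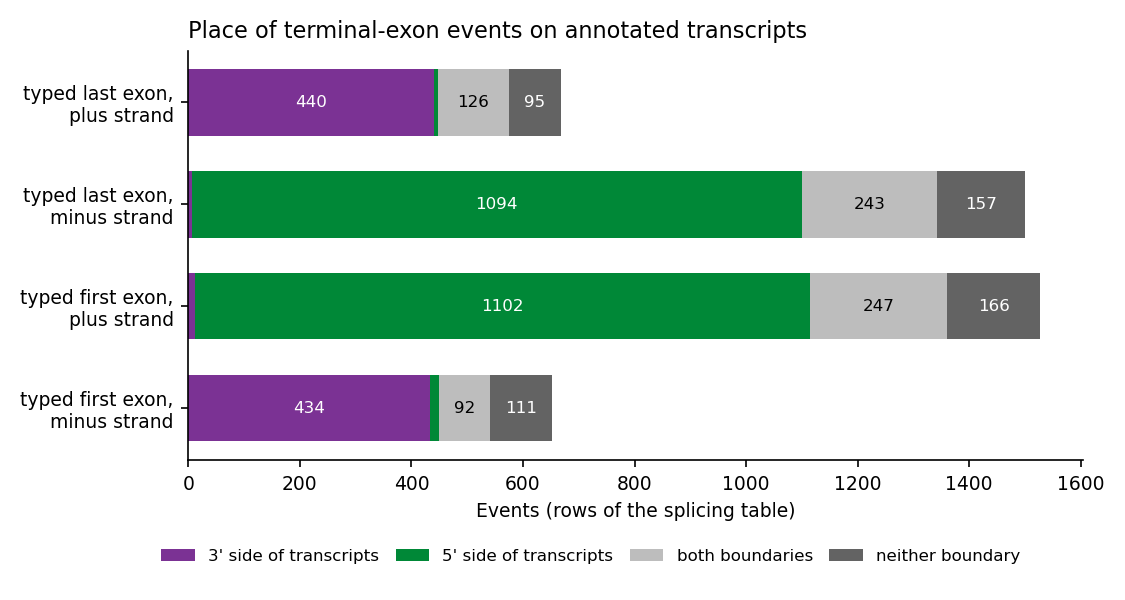
Number of events (x axis) by type and strand (rows), coloured by the side of the annotated transcripts on which the range lies. On the plus strand, 440 events typed last exon lie at the 3′ side. On the minus strand, 1094 lie at the 5′ side.

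The events fell in 1601 genes, of which 1191 held 1 event and 410 held 2 or more. Myh9, the heavy chain of non-muscle myosin, held the most, with 7. Protein-coding genes held 2080 of the events, 171 had no gene identifier, and 42 repeated the range of another event in the set. The ranges had a median length of 7227 bases (quartiles 2434 and 21559, range 41 to 991411), so that most span introns as well as exons. Events in 1 gene share its transcripts and are not independent.

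Total counts ran from 22779437 to 37549926 per library, and Ybx1 itself, which hosts an event of the set, checked the knockdown. It stood at 130 and 143 CPM (read counts scaled to library size) in sh1Ybx1 and 178 and 217 CPM in sh2Ybx1, against 1730, 1630, 1610 and 1730 CPM in shNT. It fell by 3.35 on the log2 scale (SE 0.139, edgeR adjusted p = 3.39e-05). On the second principal component of the gene counts, with 25.36% of the variance, shNT replicate 4 stood apart. Of 12 pro-B and BaF3 markers, 8 reached 1 TPM (transcript level per length, scaled to library size) in a library, with summed levels of 825 to 930 TPM in knockdown and 357 to 971 TPM in shNT. Ebf1, Igll1 and Rag1, which mark B lineage cells, were listed at 0 in every library. Summed mast cell markers ran from 8.83 to 34.3 TPM in knockdown and 0 to 8.44 TPM in shNT, nearly all of it Cpa3, with Kit, Tpsb2 and Mcpt4 at 0. Summed myeloid markers ran from 27.6 to 68.2 TPM in knockdown and 18.5 to 55.8 TPM in shNT, and of the fibroblast list only Acta2 was above 0, at 1.17 to 64.8 TPM in knockdown and 0 to 4.18 TPM in shNT. Erythroid and megakaryocyte markers summed to 297 to 425 TPM in knockdown and 242 to 546 TPM in shNT, and T and NK cell markers to 0 to 16.1 TPM in knockdown and 8.6 to 16.8 TPM in shNT. The part of these differences in the results was not tested.

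Most events showed little difference in inclusion. Delta PSI is the difference in percent spliced in, the share of reads that support the event, given as a fraction from -1 to 1. The file header does not state which group was subtracted. It is read here as knockdown minus shNT, because the authors' exon table, whose header names its direction, gives higher use in knockdown for 93.3% of its bins, and 988 of the 1057 retained introns with p under 0.05 have a positive delta PSI. The z value in the authors' deposited table, whose direction is not stated either, has the opposite sign to delta PSI in 1653 of the 1933 alternative last exon events with a nonzero delta PSI. Each count of higher or lower delta PSI rests on this reading. Among alternative last exon events, delta PSI ran from -0.53 to 0.511, and 17.8% were at 0. The middle 90% lay between -0.0802 and 0.0733, against -0.0506 and 0.149 over all events. An absolute delta PSI of 0.1 or more was given for 160 events, 6.81% of the set against 10.3% of all events.

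Those with an unadjusted p under 0.05 in the authors' deposited table numbered 103 of 2351, or 4.38%, against 7.15% of all events in the table and 3.87% once retained introns were left out. Delta PSI was negative for 59 of the 103, positive for 31 and 0 for 13, with a median of -0.0234. Over all events the higher calls outnumbered the lower ones, at 5.41% against 1.2% of the events tested, and retained introns made up most of them. After Benjamini-Hochberg adjustment over all events, 17 remained (11 lower, 4 higher and 2 at 0), against 1.36% of the whole table. The p of the last event inside the limit was 0.0479 (Gm28857) and that of the first outside it was 0.0506 (Cast). The table gives no value per library, so its p-values could not be recomputed.

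Of the 446 last exon events at the 3′ side, 32 had p under 0.05 (7.17%), with 20 lower, 5 higher and 7 at 0. Of the 1102 at the 5′ side, 46 did (4.17%), with 30 lower, 14 higher and 2 at 0. Ranges with both boundaries at splice sites held 15 called events of 369. Events of both typed classes were also sorted by the side on which they were placed. Those at the 3′ side held 67 called of 892 (7.51%, with 40 lower and 16 higher). Those at the 5′ side held 87 of 2219 (3.92%, with 51 lower and 29 higher). The difference between the sides was not tested, since events of 1 gene share reads.

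**Figure D2:**
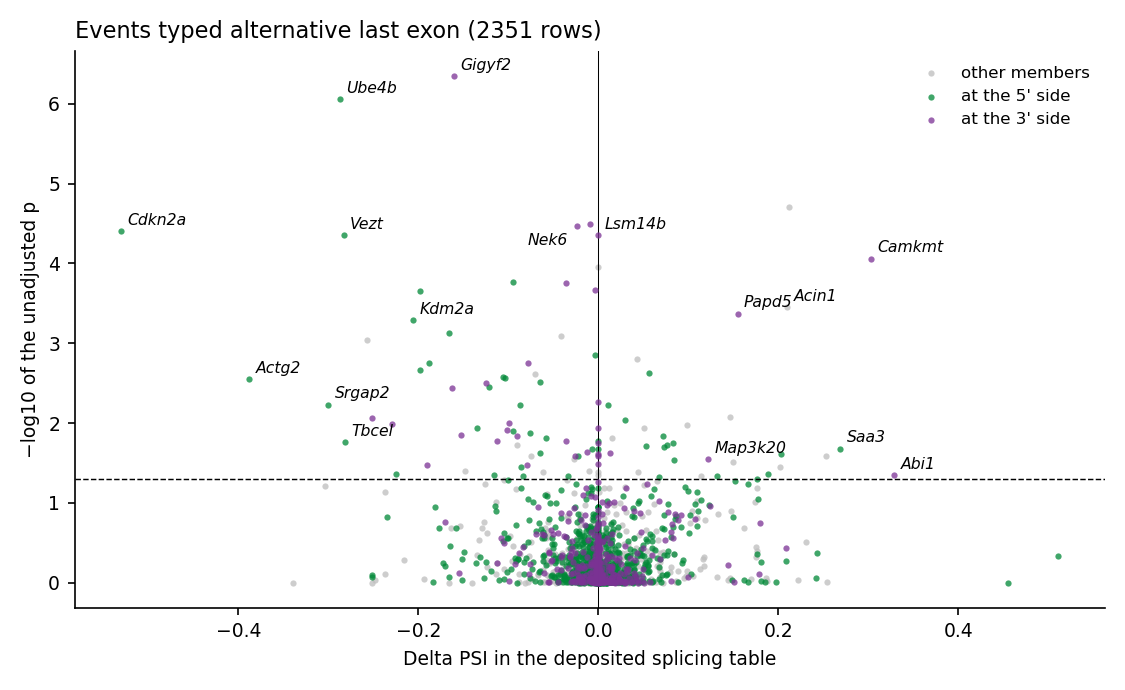
Each point is 1 of the 2351 events, with delta PSI from the authors' deposited table on the x axis and minus log10 of its unadjusted p on the y axis. The dashed line marks the limit of 0.05. Of the events above it, 59 lie left of 0 and 31 right of it.

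At the 3′ side, Gigyf2 had the smallest p of the whole set. Gigyf2 encodes a translational repressor that works with the cap-binding protein 4EHP, and its event (chr1:87354486-87450628, plus strand, GRCm38) had a delta PSI of -0.160 with p = 4.49e-07 and an adjusted p of 0.000334 in the authors' deposited table. The other last exon events that passed the adjustment over all events were in Ddx6, an RNA helicase of processing bodies (delta PSI -0.00862), and Nek6, a mitotic kinase (-0.0234). They were also in Lsm14b, an mRNA-binding protein (0), Camkmt, a calmodulin methyltransferase (0.303), and Plekha5, a pleckstrin homology domain protein (-0.0357). The last were Gnas, the stimulatory G protein alpha subunit (-0.00376), and Papd5, a non-canonical poly(A) polymerase (0.155). The difference was under 0.05 in size in 5 of the 8 (Ddx6, Nek6, Lsm14b, Plekha5 and Gnas) and over 0.1 in Gigyf2, Camkmt and Papd5.

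The named events were the 12 with the highest and the 12 with the lowest delta PSI among those with p under 0.05 whose gene averaged 5 CPM or more. Among those at the 3′ side, Abi1, an adaptor of actin regulation, had the highest at 0.329, followed by Camkmt, Papd5 and Map3k20 (0.122). Abi1 is 1 of only 6 minus-strand events placed at the 3′ side, by a splice site of exon 1 of 11. Its place as a last exon event is therefore uncertain (p = 0.0447 in the authors' deposited table). Sept8, a septin of the cytoskeleton, was among the lowest at -0.190. The Sept8 event spans chr11:53537915-53549577 on the plus strand, with p = 0.0337 in the authors' deposited table.

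At the 5′ side the named events were mostly lower. Actg2, the smooth muscle gamma actin, had the lowest delta PSI at -0.388 (chr6:83527477-83537791, p = 0.00283 in the authors' deposited table). Reads of Actg2 may be shared with its near-identical actin paralogs, so its values are uncertain. Next came Srgap2, a membrane-shaping protein (-0.300), Ube4b, a ubiquitin chain elongation factor (-0.287, p = 8.72e-07 in the authors' deposited table), and Vezt, an adherens junction protein (-0.283). After them came Tbcel (-0.282), Tmem51 (-0.225), Kdm2a (-0.206), the transcription factor Zbtb38 (-0.198) and the nuclear regulator Sbno2 (-0.198). A second Zbtb38 range, which shares 1 boundary with the first and has both boundaries at splice sites, stood at -0.257. The higher ones were Saa3, an acute phase protein (0.269), Macf1, a cytoskeletal linker (0.203), and Slfn9, of the Schlafen family (0.189). Saa3 and Slfn9 belong to families with closely similar copies, and their values are uncertain for that reason. The named events outside both sides were Acin1 (0.210), Prr14l (0.150), Brip1os (0.147), Zfp981 (0.114) and Pxn (0.0985). Cdkn2a, the Ink4a and Arf tumour suppressor gene, had the lowest delta PSI of all at -0.53 (p = 3.86e-05 in the authors' deposited table) but averaged 2.44 CPM, under the level set for naming.

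Transcript levels gave a value per library that the splicing table does not. For events whose annotated transcripts could be divided into those that end (3′ side) or begin (5′ side) at the far end of the range and those that share the splice site but do not, the TPM of the far path was taken as a share of both paths. This was possible for 635 events, 191 at the 3′ side and 444 at the 5′ side. The paths parted directly at the shared splice site, as in the printed junctions, in 58 of the 191 and in 263 of the 444. In the others they parted further along. Transcript TPM is estimated by apportioning reads between overlapping transcripts, and a value listed at 0 can be a failed estimate.

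In Nfx1 the far path was lower in every knockdown library than in every shNT library. It made up 21.5% and 19.4% of the 2 paths in sh1Ybx1 and 30.1% and 11.5% in sh2Ybx1, against 38.3%, 43.0%, 39.9% and 31.2% in shNT. Within that, sh2Ybx1 replicate 1 came within about 1 percentage point of shNT replicate 4. The delta PSI was -0.0797 with p = 0.0335 in the authors' deposited table (chr4:41009269-41025944). The far path stood at 11.0 ± 4.76 TPM in knockdown and 21 ± 3.19 TPM in shNT, and the other path at 42.6 ± 9.12 TPM in knockdown and 34.2 ± 5.10 TPM in shNT.

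In Map3k20 the far path was higher in knockdown. Its share was 49.7% and 52.7% in sh1Ybx1 and 39.5% and 47.0% in sh2Ybx1, against 36.3%, 37.1%, 35.2% and 14.0% in shNT. The mean was 47.2% ± 5.63 in knockdown and 30.6% ± 11.1 in shNT (SD, n = 4 libraries each), and shNT replicate 4 lay far below the other shNT libraries. The far path itself stood at 4.16 ± 0.767 TPM in knockdown and 3.74 ± 0.976 TPM in shNT. The short path stood at 4.64 ± 0.653 TPM in knockdown and 9.13 ± 3.42 TPM in shNT, so the larger difference was in the path with the early end. The delta PSI was 0.122 with p = 0.0285 in the authors' deposited table (chr2:72398425-72442497).

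Ddx6 was another called event whose groups did not overlap, with a difference of a few percent. Its far path made up 94.3% and 95.2% in sh1Ybx1 and 96.8% and 97.4% in sh2Ybx1, against 99.5%, 98.4%, 100% and 98.9% in shNT. That path stood at 37.2 ± 6.97 TPM in knockdown and 64.6 ± 5.13 TPM in shNT. The other path was low, at 1.64 ± 0.806 TPM in knockdown and 0.51 ± 0.43 TPM in shNT. In sh2Ybx1 the other path stood at 0.96 and 0.93 TPM, against 0.98 TPM in shNT replicate 2. For Gigyf2, in contrast, shNT spread too widely to be set against knockdown. Its far path made up 70.8% and 58.5% in sh1Ybx1 and 64.5% and 60.1% in sh2Ybx1, against 63.7%, 87.4%, 92.5% and 17.3% in shNT. The shNT values lay on both sides of all knockdown values, and shNT replicate 4 was the lowest.

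At the 5′ side, no called event that could be divided had groups that did not overlap. Kdm2a came near to it: the far path made up 80.8% and 80.2% in sh1Ybx1 and 87.5% and 65.2% in sh2Ybx1, against 99.1%, 100%, 77.0% and 100% in shNT. Only shNT replicate 3 lay among the knockdown values. Its short transcripts stood at 7.30 ± 3.68 TPM in knockdown and 2.16 ± 4.08 TPM in shNT. Tbcel varied more, at 21.9% and 41.3% in sh1Ybx1 and 31.4% and 86.3% in sh2Ybx1, against 80.2%, 100%, 91.1% and 45.6% in shNT, and the groups overlapped. Gata1, the erythroid and megakaryocyte transcription factor, stood at 91.8% and 90.9% in sh1Ybx1 and 96.5% and 92.5% in sh2Ybx1, against 94.2%, 97.5%, 100% and 100% in shNT. Bnip3l stood at 63.5% and 69.2% in sh1Ybx1 and 56.4% and 49.5% in sh2Ybx1, against 76.4%, 77.4%, 59.6% and 59.7% in shNT.

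**Figure D3:**
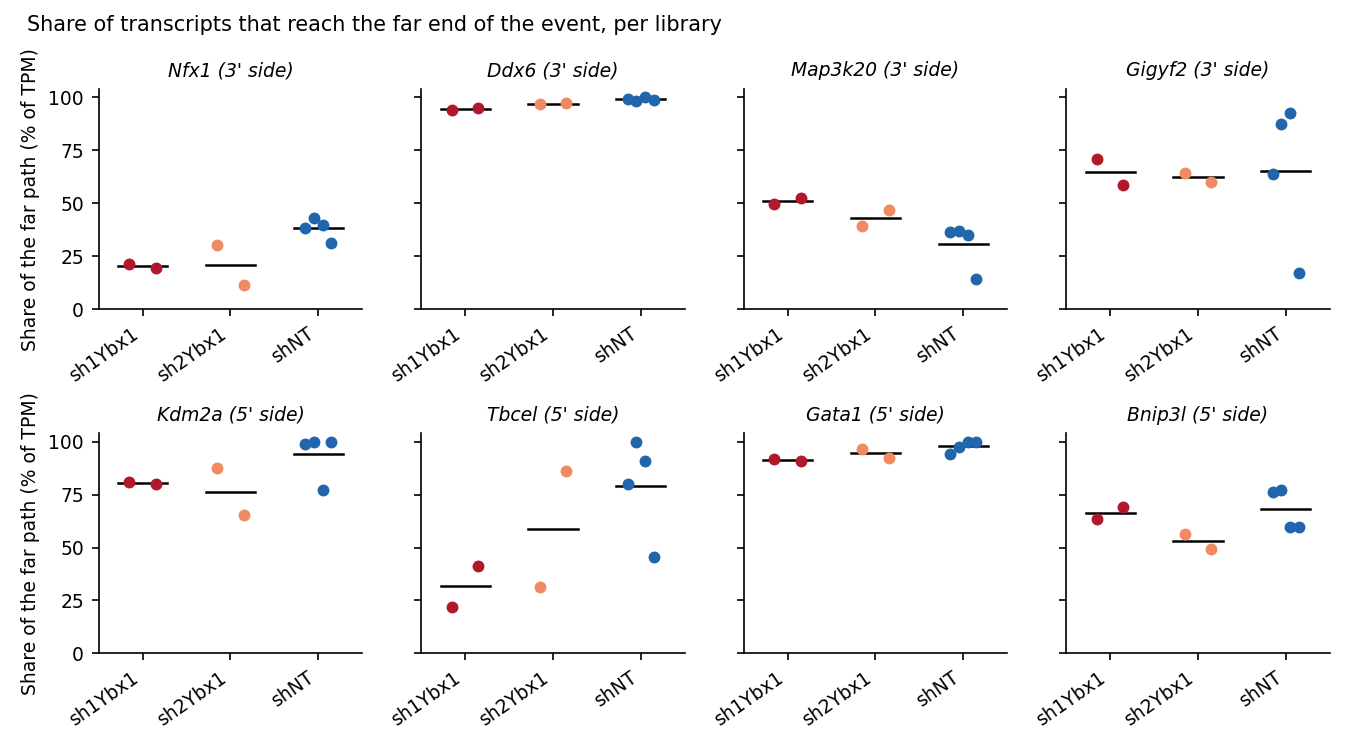
Share of the far path in the TPM of both paths (y axis, %) for 8 events with p under 0.05, per library and group, with bars at group means (n = 2, 2 and 4 libraries). Nfx1 and Ddx6 are lower and Map3k20 higher in all knockdown libraries than in all shNT libraries, while Gigyf2 and the lower row of first exon events overlap.

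The sign of delta PSI and the direction of the transcript shares were compared as a check of how the sign was read. Among called events that could be divided and had a delta PSI of at least 0.05 in size, 18 of 21 had the same sign as the difference in share, knockdown minus shNT. These were 5 of 6 at the 3′ side and 13 of 15 at the 5′ side. Over all divided events of that size, called or not, 74 of 116 did (63.8%). Both measures come from the same libraries.

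The shares were also tested event by event, with limma on the log2 ratio of the paths, over the 1195 events of both typed classes whose paths could be divided and averaged 1 TPM or more. No alternative last exon event of the 595 tested passed an adjusted p of 0.05 for both hairpins against shNT, and the smallest adjusted p was 0.212. An unadjusted p under 0.05 was found for 40 of them (6.72%), against 7.45% of all events tested. All knockdown libraries lay below all shNT libraries for 16 events and above them for 8, against 2.26% and 1.59% of all events tested, or 3.85% in either direction. The limma p of the events described above was 0.0275 for Ddx6, 0.0314 for Kdm2a, 0.0955 for Nfx1 and 0.171 for Map3k20, none past the adjustment. On simulated ratios with a normal spread per event, pooled over the groups, the test recovered 23 of 66 events changed 16-fold and 2 of 67 changed 4-fold. In that setting moderate shifts were mostly missed. The groups in fact differ in spread, with a coefficient of variation of gene counts between libraries of 0.325 in shNT, 0.0765 in sh1Ybx1 and 0.0616 in sh2Ybx1. The simulation did not copy this, nor paths listed at 0, so it does not settle what these libraries could detect. For sh1Ybx1 alone 5 events passed, all at the 5′ side (H2afy, Gtsf1, Fam92a, Pqlc3 and Flna), and for sh2Ybx1 alone 0 passed, with 30 at an unadjusted p under 0.05. The hairpins share the shNT libraries.

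By side, the median difference in share was 0.00643 percentage points over the 182 last exon events tested at the 3′ side, with a median share of the far path of 76.8% in knockdown and 77.7% in shNT. It was -0.577 percentage points over the 413 tested at the 5′ side, with a median share of 77.0% in knockdown and 77.9% in shNT. At the 3′ side, the non-overlapping events not called in the splicing table included Eif2d, a translation initiation factor, at 87.6% ± 4.93 in knockdown and 96.9% ± 2.14 in shNT. They also included Wwox, an oxidoreductase with WW domains, at 80.6% ± 3.83 in knockdown and 93.5% ± 6.08 in shNT, and Srsf10, a splicing factor of the SR family, at 46.6% ± 3.01 in knockdown and 39.3% ± 3.14 in shNT (SD, n = 4 libraries each). At the 5′ side, the p53 regulator Mdm4 stood at 57.9% ± 4.85 in knockdown and 77.5% ± 11.6 in shNT, and Clk1, a kinase of SR proteins, at 88.0% ± 2.15 in knockdown and 95.4% ± 0.441 in shNT. Phgdh, the first enzyme of serine synthesis, stood at 82.8% ± 2.52 in knockdown and 73.4% ± 1.95 in shNT. These were chosen after their values were seen, and their splicing table p-values ran from 0.43 to 1.

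A wider test of last exons regardless of events gave no calls. For each annotated last exon of a gene, the ratio of its transcripts to those of the gene's other last exons was tested over 29736 last exons. None passed in any gene (0 of 5048 in host genes of the events, smallest adjusted p 0.107), while an unadjusted p under 0.05 was found for 396 of the 5048 (7.84%) and for 8.16% of all last exons. In the simulation this test recovered 0 of 66 last exons changed even 16-fold, so its lack of calls carries no information on size. The 6 last exons with the smallest p in host genes of events at the 3′ side, none of which passed, were in Mroh1, Gatad2b, Psmd13, Rgp1, Taldo1 and Katna1. In Katna1, a microtubule-severing enzyme, 1 last exon made up 27.6% ± 12.4 of the gene's TPM in knockdown and 1.36% ± 2.73 in shNT. In Gatad2b, a subunit of the NuRD complex, 1 made up 12.1% ± 3.90 in knockdown and was listed at 0 in all shNT libraries. In Taldo1, of the pentose phosphate pathway, 1 made up 0.958% ± 0.405 in knockdown and was listed at 0 in shNT.

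When both alternatives had to average 2 TPM or more, a filter chosen after the data were seen, 22 of 13212 last exons passed (0.167%), 6 of them in host genes. They were in Kcnab2, a potassium channel subunit, Rrp1, a ribosome assembly factor, Dld, a subunit of mitochondrial dehydrogenases, Ndrg3, Rnf220 and the transcription factor Zbtb7b. Each was listed at 0 in all libraries of 1 group, so it reached the mean of 2 TPM only through the group where it was high. Passing that filter was thus not independent of the difference, and the values are given as a description. For Kcnab2, the last exon made up 0 in all knockdown libraries and 29.4%, 28.9%, 24.9% and 32.0% in shNT. For Zbtb7b it made up 0 in all knockdown libraries and 37.4%, 23.6%, 26.2% and 31.9% in shNT. The events of these genes in the splicing table had p-values from 0.291 to 0.87. The same test of first exons gave 0 calls of 29946 with an unadjusted p under 0.05 for 8.04%, and 42 of 14172 (0.296%) under the filter of 2 TPM, 8 of them in host genes. In all 8, the exon or the rest of its gene's first exons was listed at 0 in all knockdown libraries, so the same limit holds. Among these were a pair of first exons of Tent4b, the current name of Papd5. One made up 100% in all knockdown libraries and 85.7%, 61.6%, 66.0% and 80.0% in shNT.

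The annotated ends of the 2 paths differed in kind. At the 3′ side, 76.8% of the 491 far-path transcripts were annotated as protein coding, against 51.7% of the 429 other-path transcripts, and transcripts annotated as retained intron or processed made up 10.2% of the far-path and 34.5% of the other-path ones. At the 5′ side, 68.5% of the far-path and 67.6% of the other-path transcripts were annotated as protein coding. Retained intron or processed transcripts made up 20.2% of the far-path and 26.4% of the other-path transcripts there. Processed transcripts numbered 54 of the 1170 far-path and 190 of the 1114 other-path transcripts. AATAAA or ATTAAA, in this sense only, was present in the last 40 bases of 62.3% of the far-path transcripts with a complete end (298 of 478) and of 36.8% of the other-path ones (130 of 353). Over all annotated transcripts the share was 35.6%, and over protein-coding ones 59.4%. Among protein-coding transcripts alone, the far path held a hexamer in 65.2% and the other path in 55.6%. Matching letters are a description of the annotation and not a measured cleavage site.

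Genes that host the events were more often lower than higher in knockdown. Of 1584 host genes tested with edgeR, 340 fell (21.5%) and 159 rose (10.0%), with a median log2 fold change of -0.11. Over all 13552 genes tested, 14.2% fell and 14.8% rose, with a median of 0. Among protein-coding genes, 15.7% fell and 11.7% rose. Host genes had a median level of 95.2 CPM, against 26.5 CPM over all genes tested. The counts turned on single libraries: without shNT replicate 4, 578 fell and 310 rose, against 26.7% and 23.6% of all genes tested. Leaving out any 1 knockdown library left its hairpin with 1 library. Fewer genes then passed in both directions, among host genes and over all genes tested, so the calls of the whole test moved with those of the host genes. For sh1Ybx1 alone 210 fell and 131 rose, against 7.96% and 11.2% of all genes tested, and for sh2Ybx1 alone 242 fell and 105 rose, against 9.45% and 10.4%.

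Apart from Ybx1, the host genes that fell most were Ero1l, an oxidase of protein folding in the endoplasmic reticulum (-3.15), Trib3, a pseudokinase (-2.91), Angptl6, a secreted angiopoietin-like protein (-2.82), and Ddit3, the stress transcription factor CHOP (-2.60). Ddit3 stood at 18.5 and 17.2 CPM in sh1Ybx1 and 18.1 and 16.6 CPM in sh2Ybx1, against 62.4, 28.3, 113 and 223 CPM in shNT. The groups did not overlap, but shNT spread widely. Its adjusted p was 0.0121, and it did not pass when any 1 of the knockdown libraries was left out. Angptl6 did not pass without sh1Ybx1 replicate 1 or without either sh2Ybx1 library. Those that rose most were Gm10717, Gm10800, Gm26870, Gm21738 and Rpl3-ps2, numbered genes or pseudogenes with near-identical copies elsewhere, so their counts are uncertain.

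Of the 32 hosts of called events at the 3′ side, 12 fell (37.5%) and 0 rose, with a median of -0.41. Over all genes tested 14.2% fell and 14.8% rose, and over all host genes 21.5% fell and 10.0% rose. Those that fell included Gigyf2, Ddx6, Nek6, Lsm14b, Gnas, Papd5, Efl1, Htatsf1, Rsrc1, Atr and Sap130. Gigyf2 stood at 79.9 and 85.8 CPM in sh1Ybx1 and 91.3 and 96.5 CPM in sh2Ybx1, against 140, 139, 113 and 157 CPM in shNT, and fell by 0.64 on the log2 scale (SE 0.129, edgeR adjusted p = 0.00996). The groups did not overlap, but Gigyf2 did not pass without sh1Ybx1 replicate 1 or without sh2Ybx1 replicate 1. Of the 44 hosts of called events at the 5′ side, 7 fell (15.9%, near the share of all genes) and 3 rose (6.82%). Without any 1 knockdown library, which left its hairpin with 1 library, fewer of the hosts at the 3′ side fell. Fewer of all genes tested fell as well. The event p-values and the gene counts come from the same libraries.

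Actg2, the host of the lowest named event, differed between the hairpins. It stood at 59.8 and 66.7 CPM in sh1Ybx1 and 23.5 and 23.0 CPM in sh2Ybx1, against 28.2, 22.8, 27.6 and 31.5 CPM in shNT. Its log2 fold change was 1.2 for sh1Ybx1 and -0.24 for sh2Ybx1, and the difference of 1.44 passed the edgeR test (adjusted p = 0.0298). Over all genes, 0.524% differed between the hairpins.

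Listed factors of cleavage, polyadenylation and related steps were lower or not past the test, and none rose. The list is wider than the cleavage and polyadenylation complex and holds factors of termination and mRNA decay, such as Scaf8, Xrn2 and Zfp36l1. Of 29 listed factors tested, 13 fell (44.8%, against 14.2% of all genes tested and 15.7% of protein-coding genes), with a median log2 fold change of -0.36. The factors had a median level of 83.7 CPM, against 26.5 CPM over all genes tested. With the smallest adjusted p came Fip1l1 (-0.73, adjusted p = 0.0110) and Cpsf2 (-0.56, 0.0116), subunits of the complex that reads the AATAAA signal. Next were Scaf8, a binder of the RNA polymerase II tail that prevents early termination (-0.64, 0.0123), Xrn2, the exonuclease of transcription termination (-0.61, 0.0126), and Zfp36l1, an AU-rich element binding protein of mRNA decay (-1.54, 0.0152). Fip1l1 stood at 74.0 and 91.0 CPM in sh1Ybx1 and 77.3 and 82.8 CPM in sh2Ybx1, against 118, 123, 128 and 171 CPM in shNT. The other factors that fell were Sympk, Pabpc1, Papola, Nudt21, Cpsf6, Ppp1cb, Wdr33 and Zc3h14. Without any 1 knockdown library, which left its hairpin with 1 library, fewer factors or none passed. Fewer of all genes tested passed as well. Without shNT replicate 4, 19 factors fell, against 26.7% of all genes tested. For sh1Ybx1 alone 4 fell and for sh2Ybx1 alone 8, against 7.96% and 9.45% of all genes tested.

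Regulators of last exon and poly(A) site choice went the same way in most called cases. Of 30 tested, 11 fell (36.7%) and 2 rose (6.67%), against 14.2% and 14.8% of all genes tested, with a median of -0.29. Among protein-coding genes, 15.7% fell and 11.7% rose. The regulators had a median level of 235 CPM, against 26.5 CPM over all genes tested. Regulators that fell included Pcbp2 (-1.2, adjusted p = 0.00477) and Pcbp1, poly(C)-binding proteins, Snrpa, the A protein of U1 snRNP (-0.72, 0.00537), and Mbnl1, Mbnl2, Qk, Ptbp1, Khdrbs1, Elavl1, Cdk12 and Ccnk. Pcbp1 stood at 402 and 475 CPM in sh1Ybx1 and 170 and 199 CPM in sh2Ybx1, against 431, 473, 423 and 517 CPM in shNT. Only sh2Ybx1 lay below shNT in every library, and the call for both hairpins was lost without sh1Ybx1 replicate 1 or without sh2Ybx1 replicate 1. The difference between the hairpins of 1.25 on the log2 scale passed the test (adjusted p = 0.0426). Hnrnpu, a nuclear scaffold RNA-binding protein, rose by 0.67 (SE 0.111, adjusted p = 0.00547), at 147, 137, 174 and 173 CPM in the knockdown libraries and 90.7, 110, 99.2 and 95 CPM in shNT. Rbfox2, a splicing regulator, stood at 1.11, 1.46, 1.73 and 2.06 CPM in knockdown and at 0 in all shNT libraries but 1, which had 0.0279 CPM, too few reads for a fold. The number that fell was 18 without shNT replicate 4, against 26.7% of all genes tested. Without any 1 knockdown library, which left its hairpin with 1 library, fewer regulators fell. Fewer of all genes tested fell as well. For sh1Ybx1 alone 5 regulators fell, against 7.96% of all genes tested. Cstf2 is in both lists and did not pass.

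**Figure D4:**
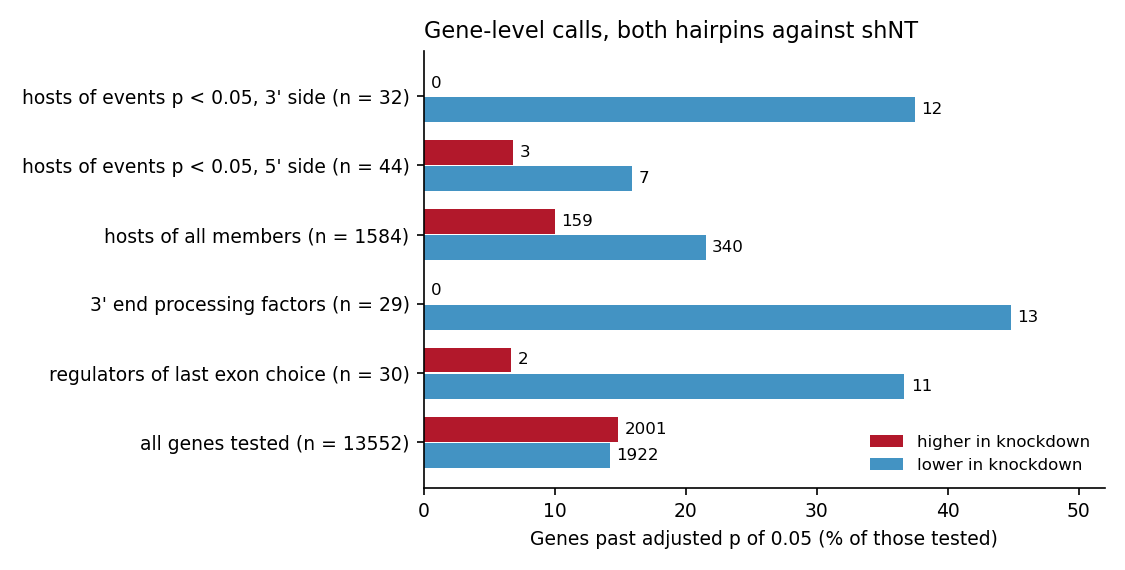
Share of tested genes that rose (red) or fell (blue) in knockdown against shNT at an edgeR adjusted p of 0.05 (x axis, %), for host genes of events and for the factor lists, with counts beside the bars. Of the hosts of called events at the 3′ side, 12 fell and 0 rose. Of the listed factors of 3′ end processing and related steps, 13 fell and 0 rose.

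The authors' exon table adds read counts for parts of exons, called bins. It lists 582 bins selected by the authors on these libraries, of which 543 are higher in knockdown, so its bins describe the ranges and give no test. In host genes lay 108 bins of 94 genes, and 31 bins of 27 genes lay inside the placed range of an event. Of these 31, 29 were higher in knockdown. Bin reads per 1000 reads of the gene were higher in all knockdown libraries than in all shNT libraries for 28 of the 31, against 86.2% of the bins in the table. They were lower in all for 2 (Sept8 and Specc1), against 4.43%.

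The bins with the smallest p lay in events that the splicing table did not call. They were in Clk1, Son (3 bins of a splicing cofactor), Pik3cb, a PI3 kinase subunit, Cdca7, C920009B18Rik, A630001G21Rik, 2310035C23Rik and Gab3. The largest bin of Son, of 2676 bases, held 102, 82.3, 131 and 117 reads per 1000 in the knockdown libraries and 39.8, 35.9, 31.1 and 36.9 in shNT. The delta PSI of its event was 0.0148 with p = 0.625 in the authors' deposited table. In 5 genes, Bnip3l, Clk1, Gab3, Hmgb1 and Thumpd3, the bin lay in the terminal exon of the other path. In Clk1 this bin held 55.5, 50.1, 55.7 and 52.1 reads per 1000 in the knockdown libraries and 25.2, 29.5, 32.8 and 27.5 in shNT, and the far path's share of TPM was lower in every knockdown library than in every shNT library.

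For events with p under 0.05, 6 bins in 5 genes could be set beside the event. In Bnip3l the bin was exactly the other path's upstream exon at chr14:67000405-67000508. It held 7.46 and 5.92 reads per 1000 in sh1Ybx1 and 9.52 and 13.0 in sh2Ybx1, against 4.02, 2.76, 5.01 and 2.64 in shNT, and the event's delta PSI was -0.0760. In Thumpd3, an RNA methyltransferase, the other path's terminal exon held 87.3, 50.7, 53.1 and 49.1 reads per 1000 in the knockdown libraries and 25.4, 23.7, 29.8 and 25.3 in shNT, with a delta PSI of -0.125. In both genes this bin was higher per gene read in every knockdown library than in every shNT library. Bnip3l itself was lower in knockdown (log2 fold change -0.97, edgeR adjusted p = 0.0414). The raw counts of its bin were 27 and 21 in sh1Ybx1 and 42 and 66 in sh2Ybx1, against 34, 27, 36 and 32 in shNT. The summed TPM of the other path of Bnip3l did not go the same way as the bin per gene read, and the groups overlapped. It stood at 24.5 and 19.7 TPM in sh1Ybx1 and 42.7 and 52.9 TPM in sh2Ybx1, against 28.5, 26.0, 40.9 and 86.7 TPM in shNT. The groups also overlapped in the summed TPM of the other path of Thumpd3. That path stood at 10.7 ± 5.53 TPM in knockdown and 9.17 ± 9.36 TPM in shNT (SD, n = 4 libraries each).

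Sept8 held a bin that was higher and a bin that was lower. The bin of 1275 bases at the far end of the range (chr11:53548291-53549565) held 44.4 and 38.4 reads per 1000 in sh1Ybx1 and 26.5 and 30.8 in sh2Ybx1, against 109, 58.2, 64.8 and 140 in shNT. The bin of 180 bases nearer to the shared splice site held 34.8, 21.2, 37.3 and 32.8 in the knockdown libraries, against 16.0, 16.5, 11.7 and 14.1 in shNT. Neither pair of groups overlapped, and the level of the gene did not pass the test (log2 fold change -0.01, adjusted p = 0.950). Bins inside the ranges of Actg2 and Srgap2 were higher in all knockdown libraries, at 30.5 ± 6.15 and 53.0 ± 7.48 reads per 1000 in knockdown and 13.5 ± 3.97 and 27.4 ± 7.10 in shNT (SD, n = 4 libraries each).

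**Figure D5:**
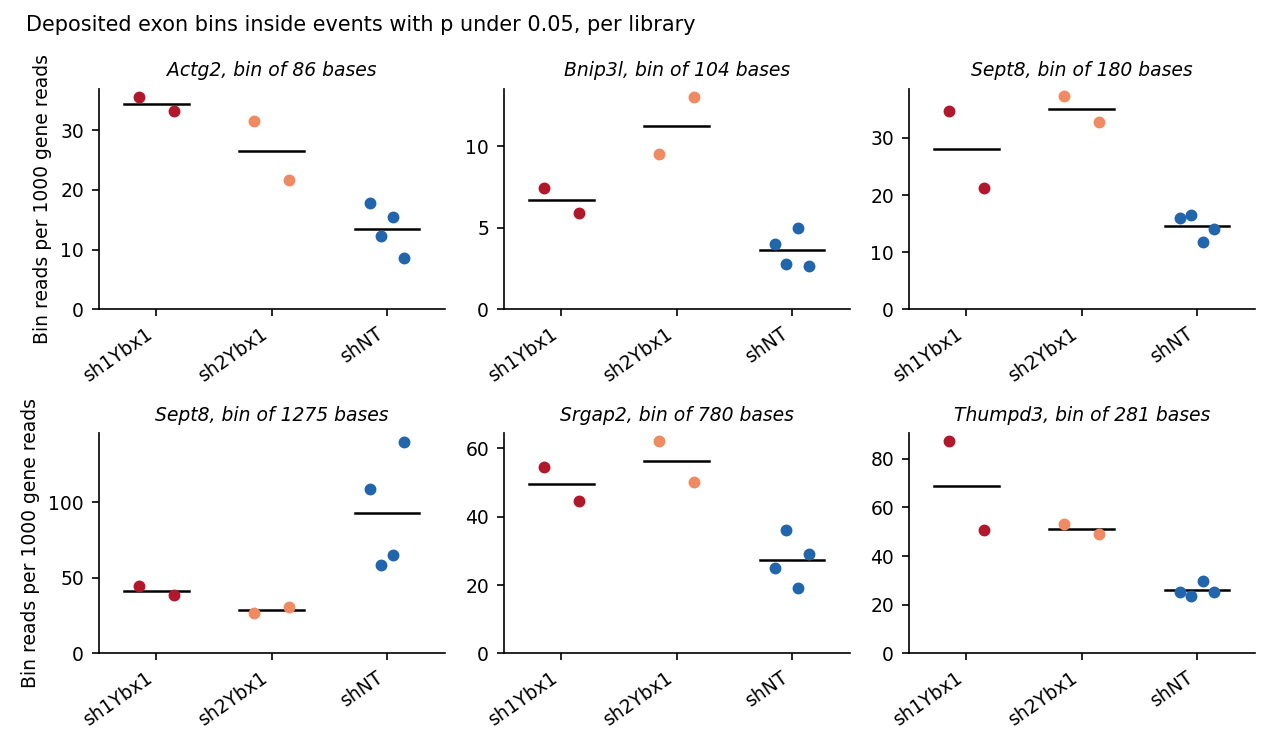
Reads in an exon bin per 1000 reads of its gene (y axis) for the 6 bins inside events with p under 0.05, per library and group, with bars at group means (n = 2, 2 and 4 libraries). The Sept8 bin of 1275 bases is lower and the other 5 bins are higher in all knockdown libraries than in all shNT libraries.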

How the data were processed

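Poly(A)-selected RNA of 8 libraries was sequenced, per the labels' protocols. Per the submitters' processing notes, STAR, RSEM, featureCounts and limma were used, in roles and versions not stated, with GRCm38 and mm9 as builds. The deposited gene and exon bin tables hold raw counts. The authors' splicing table gives a delta PSI, a z value (a signed score) and an unadjusted p-value per event, and the authors' exon table an adjusted p-value and a log2 fold change per bin. Transcript and gene levels are deposited as TPM, and transcript levels also as FPKM, which served as an alternative. The program that called the events, the version of the annotation and whether counting used strand are not given in the sources used here.

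Members and gene lists were chosen with earlier results of these data known. Events were placed on GENCODE M21 transcripts (GRCm38), to which 133445 of 133944 transcripts in the files matched by identifier (99.63%). Most ranges had a boundary at a splice site of that build. Gene counts were fitted with edgeR 4.0.16 (R 4.3.3; quasi-likelihood test, TMM scaling, filterByExpr, 13552 genes, 3 group means over all 8 libraries), with Benjamini-Hochberg adjusted p under 0.05. The contrast of both hairpins takes the mean of the hairpin groups minus shNT. Standard errors were derived from each log2 fold change and its F statistic. Path, last exon and first exon ratios were tested with limma 3.58.1 on log2((TPM + 0.1)/(TPM of the rest + 0.1)), for genes or paths averaging 1 TPM or more. The fold is on that scale. The test of events and that of first exons were added after the data were seen.

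The text names the 12 highest and 12 lowest delta PSI among events with p under 0.05 in genes averaging 5 CPM, the 5 highest and 5 lowest called host genes, the last exons with the smallest p (6 where none passed), the 10 bins with the smallest p and 5 genes per factor list. Other names are said to be chosen after their values were seen, or complete a count. Results on some items that these rules would name are not reported here. On simulated counts over 13460 genes, the edgeR fit recovered 8 of 67 shifted by 1.5-fold, 41 of 67 by 2-fold and 66 of 66 by 4-fold, with 4 of 13260 unshifted genes called. All groups had the same spread in that simulation, unlike the libraries, and only genes above a low count limit were shifted. It therefore does not settle what these libraries could detect. Alternatives were DESeq2 1.42.0, relative log expression size factors, no filters, another pseudocount, each hairpin alone, a replicate block and leaving out each library.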

Additional observations from a re-analysis of the deposited data

Results flagged for a closer look

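Kdm2a and Map3k20 each had 1 shNT library far from the other 3 in the share of the far path: 77.0% for Kdm2a in shNT replicate 3 and 14.0% for Map3k20 in shNT replicate 4. In gene level, shNT replicate 4 lay apart for Pcbp2 (525 CPM) and Papd5 (117 CPM), and shNT replicate 2 for Gm10800 (3.6 CPM) and Rbfox2 (0.0279 CPM). In each, the gap to the nearest library as a share of the group's range exceeded the 95% critical value of Dixon's test for 4 samples. For Rbfox2 the other shNT libraries stood at 0, so any read in 1 library meets this rule and the flag carries no information. Chance gives this in about 1 in 20 groups, and 35 groups were looked at.

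The hairpins differed in their effect on the levels of Pcbp1, by 1.25 on the log2 scale (sh1Ybx1 minus sh2Ybx1, edgeR adjusted p = 0.0426), and of Actg2, by 1.44 (adjusted p = 0.0298).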

How the results depend on the processing

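Called alternative last exon events numbered 41 at an unadjusted p under 0.01, 17 after adjustment over all events and 43 with an absolute delta PSI of 0.1 or more, against 103. Leaving out 1 library at a time, host genes that rose ranged from 52 to 310 and those that fell from 110 to 578, 3′ end factors that fell from 0 to 19 with 0 to 0 risen, regulators that fell from 2 to 18, hosts of called 3′ side events that fell from 1 to 16, last exons and first exons called from 0 to 0 and divided events called from 0 to 1. Over all genes tested, 26.7% fell and 23.6% rose without shNT replicate 4. Without any 1 knockdown library, fewer of all genes tested passed in both directions. For sh2Ybx1 alone 105 host genes rose and 8 factors fell, and for sh1Ybx1 alone 210 host genes and 4 factors fell. At 2 TPM or more for both alternatives, 6 last exons and 8 first exons in host genes passed, each with 1 alternative listed at 0 in a whole group, and for sh1Ybx1 alone 5 divided events did. Actg2 turned to -0.24 for sh2Ybx1 alone. Of 364 alternatives for 26 named genes, 316 kept direction and call, 47 lost the call and 1 reversed. The cause of these changes was not tested. DESeq2, size factors and filters moved no count of genes here by over 1.5 times.

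With the replicate number as a block, 333 host genes rose, 546 fell and 19 regulators fell. Over all genes tested, 24.3% rose and 24.8% fell in that fit. Same-numbered libraries correlated between -0.0118 and 0.197, so the numbers were not taken to pair them. Depth, with totals from 22779437 to 37549926 counts, and 2 libraries per hairpin limit what could be called.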

Other observations

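Further first exon events by transcript order had shares of the far path that did not overlap between the groups, although the splicing table did not call them. They were chosen after their values were seen, and none passed the limma test after adjustment. In Hk1, the hexokinase that starts glycolysis in most tissues, the far path made up 5.23% and 4.46% in sh1Ybx1 and 10.1% and 8.47% in sh2Ybx1, against 16.6%, 16.3%, 14.5% and 27.6% in shNT. Its delta PSI was -0.235 with p = 0.149 in the authors' deposited table. In Rab11b, a GTPase of recycling endosomes, it made up 64.9% and 49.4% in sh1Ybx1 and 12.3% and 25.9% in sh2Ybx1, against 80.4%, 100%, 78.8% and 78.5% in shNT, with a delta PSI of 0 in that table.

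In Anapc1, the scaffold subunit of the anaphase-promoting complex, the far path made up 58.4%, 79.5%, 75.5% and 91.8% in the knockdown libraries and 100%, 100%, 91.9% and 100% in shNT. In Wdr37, a WD repeat protein, it made up 39.0%, 64.3%, 86.9% and 84.5% in the knockdown libraries and 0, 17.0%, 11.6% and 0 in shNT. In Stk25, a kinase of the Golgi, it made up 81.4%, 68.1%, 74.0% and 75.8% in the knockdown libraries and 59.1%, 61.1%, 50.3% and 61.1% in shNT. Shares of 0 and 100% are as listed and can be failed estimates.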
